A study of Mus musculus with 9 samples.

Results

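The integrins and laminin-332 chains described here are 9 mouse genes that tie an epithelial cell to its basement membrane. They were taken by gene symbol: Itga3, Itga6, Itgb1, Itgb4, Itgav, Itgb5, Lama3, Lamb3 and Col17a1. The array annotation named 15 probe sets for them, of 12422 in all, and all 15 were above the limit set for testing. Itgav had 3 probe sets, Itga3, Itgb1, Itgb5 and Lamb3 had 2 each, and the others had 1. Expression was measured on 9 single-channel arrays of total RNA from prostate epithelial lines of the mouse, 1 per genotype. The Rb-null line (Rb-/-PrE) lacks the retinoblastoma gene, and the control line (wtPrE) is wild-type. Both grew in RPMI-1640 medium. The 4 groups were Rb-null cells kept for 48 hours without fetal bovine serum (2 arrays), Rb-null cells in 5% serum (2 arrays), wild-type cells kept for 48 hours without serum (2 arrays) and wild-type cells in 5% serum (3 arrays). With 1 line per genotype, what separates the genotypes here may also be what separates the lines. Nothing in the labels tells separate cultures from repeat hybridizations, so p-values measure only the spread between arrays, which may be technical.

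Integrins are receptors made of an alpha and a beta subunit that bind matrix outside the cell and the cytoskeleton inside. Laminin-332, whose chains include those encoded by Lama3 and Lamb3, is the main adhesion ligand of basal and stratified epithelia. The receptor of Itga3 and Itgb1 binds it at actin-linked contacts, and the receptor of Itga6 and Itgb4 binds it at hemidesmosomes, which anchor keratin filaments. Col17a1 is a membrane collagen of the hemidesmosome. Itgav and Itgb5 form a receptor for vitronectin. In the prostate these contacts are best known from the basal cells that rest on the basement membrane.

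Rb1 intensity was 112 to 166 on the Rb-null arrays and 361 to 713 on the wild-type arrays on its tested probe set. Values below a floor of 197 were raised to the floor, and the 4 Rb-null values all lay under it. Median intensity ran from 445 to 474 across arrays. Epithelial markers were high in both lines, with Krt8 at 7877 to 10863 and Epcam at 1042 to 1991. Of the 5 basal markers, Krt17 read 629 to 794, Krt5 read 556 to 722 and Trp63 read 318 to 384. Krt14 read 200 to 239, close to the floor, and Krt15 lay under the floor on every array. The smooth muscle markers Myh11, Acta2 and Cnn1 also lay under it everywhere. The summed intensity of the 6 smooth muscle markers was 5819 to 6428 on the Rb-null arrays and 7963 to 10081 on the wild-type arrays, and all 3 tested members were lower in Rb-null cells. The sum of 6 endothelial markers was 2265 to 2480 on the Rb-null arrays and 2514 to 3048 on the wild-type arrays, with 3 of 5 tested members lower and Tek under the floor on all arrays. The part of these shifts in the results below was not tested. In bulk RNA, fewer cells of a type and less RNA per cell cannot be told apart. The array wild-type serum 1 stood apart, with rank correlations of 0.986 and 0.984 with the other arrays of its group, against 0.997 between those. Results that rest on it are therefore also given without it.

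**Figure D1:**
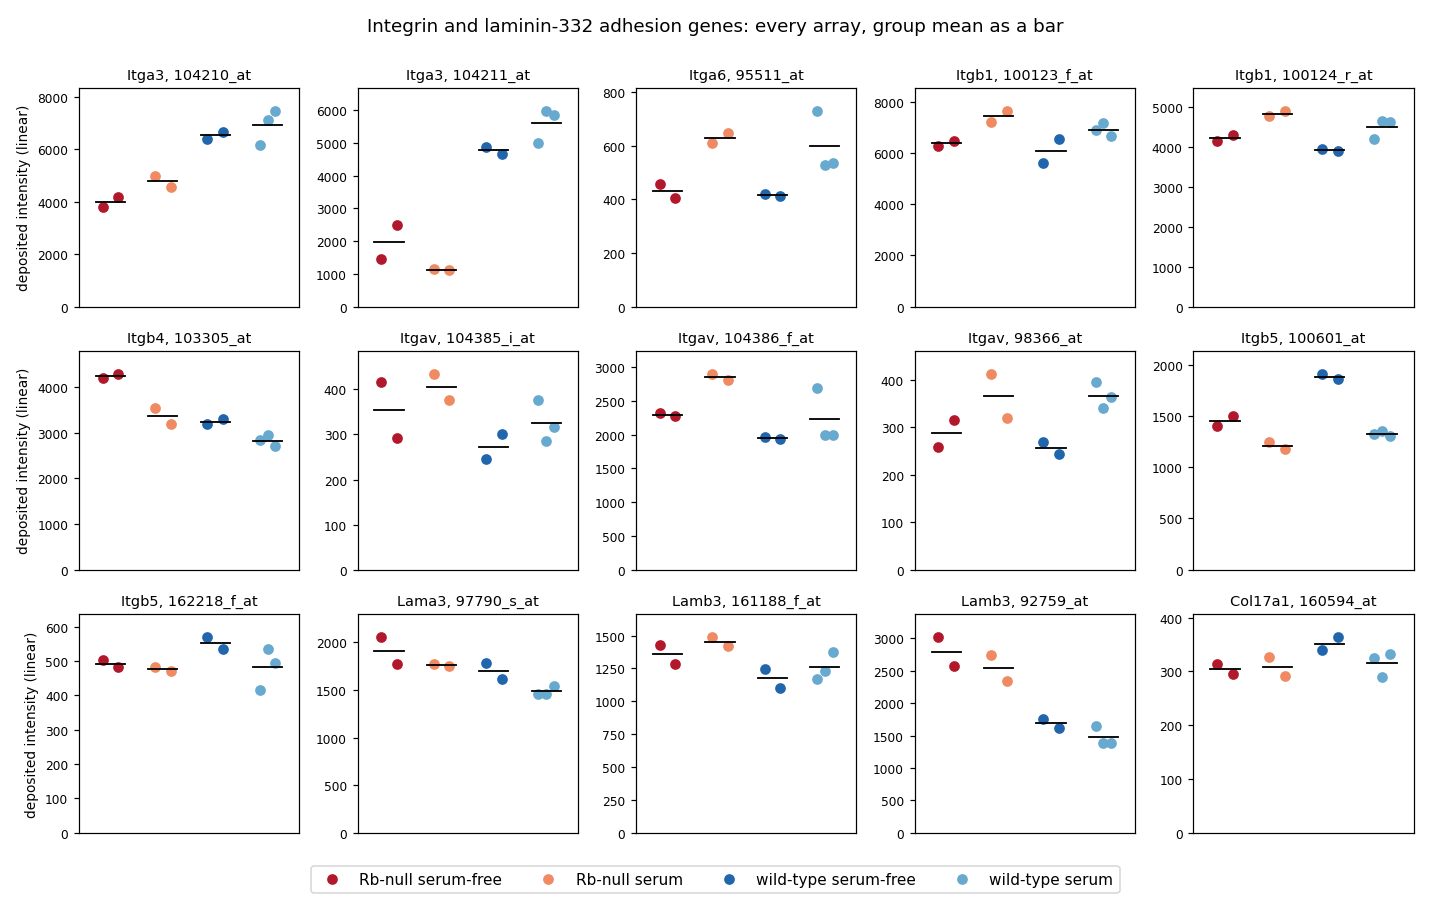
Deposited intensity (linear, from 0) of the 15 probe sets on every array, 1 panel each, with the Rb-null serum-free, Rb-null serum, wild-type serum-free and wild-type serum groups from left to right. Points are arrays and bars are group means. Both Itga3 panels show all Rb-null arrays under all wild-type arrays, and Lamb3 92759_at shows the opposite order.

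The first comparison asked how the lines differed on average over the media. In Rb-null cells both Itga3 probe sets were lower, at -1.96 and -0.77 on the log2 scale, and 1 probe set of Itgb5 was lower at -0.44. One Lamb3 probe set was 1.48-fold higher, and Itgb4 was 1.10-fold higher. Itgb1, the shared beta subunit of many integrins, did not pass on either probe set, nor did Itga6, Itgav, Lama3 or Col17a1. In total, 2 of the 15 probe sets were higher and 3 were lower at an adjusted p under 0.05. Across all tested probe sets 45.2% passed, 21.8% higher and 23.4% lower, so in this fit the share among these genes was below that of the array. Rb-null and wild-type arrays were fully separated for 3 of the 15, both of Itga3 and 1 of Lamb3, against 23.1% of all tested. Within serum 1 was higher and 3 lower, against 23.6% of all tested that passed either way, and within serum-free medium also 1 and 3, against 30.7%. The median log2 difference was 0.02 over the 15 probe sets and -0.05 over all tested. Without wild-type serum 1, 4 were higher and 5 lower, while the share of all probe sets that passed was 62.5%. With the values as deposited, unnormalized, 5 were higher and 3 lower. Over all tested genes, with 1 probe set each, 30.1% were then higher and 843 of 7052 lower. The share among the 15 was thus not below that of all tested genes with those values. Among all probe sets that passed, 48.1% were higher in the normalized values, 69.3% in the deposited values and 60.7% after scaling arrays by their medians.

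**Figure D2:**
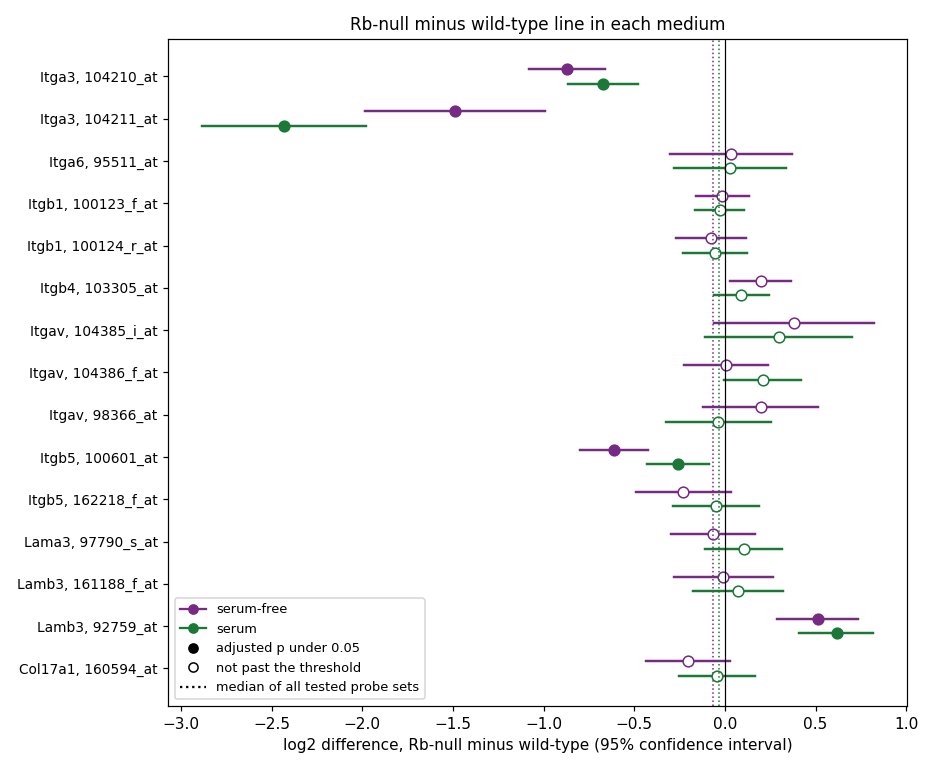
Log2 difference, Rb-null minus wild-type, of each probe set in serum-free medium and in serum, with 95% confidence intervals. Filled points passed an adjusted p under 0.05 and dotted lines mark the median of all tested probe sets. Itga3 lies furthest to the left (-2.43 in serum for 104211_at) and Lamb3 92759_at furthest to the right (0.61 in serum).

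Itga3, on chromosome 11, encodes the alpha subunit of the main laminin-332 receptor at actin-linked contacts. Probe set 104211_at read 1445 and 2491 in Rb-null serum-free arrays, 1145 and 1106 in Rb-null serum arrays, 4880 and 4667 in wild-type serum-free arrays and 4984, 5964 and 5847 in wild-type serum arrays. The lowest wild-type array thus lay well above the highest Rb-null array, and the serum-free Rb-null arrays were far apart from each other. The averaged log2 difference was -1.96 (SE 0.15, adjusted p = 1.51e-05). In serum it was -2.43 (SE 0.20, adjusted p = 4.70e-05). In serum-free medium it was -1.49 (SE 0.22, adjusted p = 0.00146). Leaving out Rb-null serum-free 1 gave -1.07 in that medium, and leaving out array 2 of the same group gave -1.91, with the call kept each time. The other probe set, 104210_at, read 3783 and 4180 in Rb-null serum-free arrays, 4982 and 4554 in Rb-null serum arrays, 6381 and 6671 in wild-type serum-free arrays and 6147, 7123 and 7445 in wild-type serum arrays. Here too no Rb-null array reached the wild-type range. The averaged difference was -0.77 (SE 0.06, adjusted p = 2.24e-05), with -0.67 in serum and -0.87 without serum. All 6 genotype calls of Itga3 held under every alternative setting and without any single array.

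The promoter windows of Itga3 and Lamb3 are shown because Itga3 was lower and 1 Lamb3 probe set was higher in Rb-null cells. The other Lamb3 probe set did not pass after normalization. RefSeq windows of the assembly GRCm38.p6 matched 6 of the 9 genes. Itga3 has 2 annotated start sites in that table and Lamb3 has 2, of which the upstream one is given. Each window holds the 250 bases before the start site, read on the gene's strand. The Itga3 windows are chr11:95076715-95076964 and chr11:95069199-95069448 on the minus strand, and the Lamb3 window is chr1:193301744-193301993 on the plus strand. The second Itga3 window and the Lamb3 window lie within the annotated span of their gene, and the first Itga3 window lies partly within it. Capitals mark matches to a GC box.
Itga3 start 1: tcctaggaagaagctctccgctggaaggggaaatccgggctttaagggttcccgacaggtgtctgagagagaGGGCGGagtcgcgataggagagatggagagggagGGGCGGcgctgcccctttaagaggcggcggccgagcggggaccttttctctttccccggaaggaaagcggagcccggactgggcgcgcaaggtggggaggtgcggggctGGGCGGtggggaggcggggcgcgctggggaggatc
Itga3 start 2: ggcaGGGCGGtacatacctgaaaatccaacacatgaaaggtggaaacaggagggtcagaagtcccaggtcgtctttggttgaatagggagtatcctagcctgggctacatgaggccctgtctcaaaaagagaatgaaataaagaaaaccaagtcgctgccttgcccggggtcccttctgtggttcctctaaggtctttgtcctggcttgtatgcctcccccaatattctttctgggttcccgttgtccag
Lamb3 start 1: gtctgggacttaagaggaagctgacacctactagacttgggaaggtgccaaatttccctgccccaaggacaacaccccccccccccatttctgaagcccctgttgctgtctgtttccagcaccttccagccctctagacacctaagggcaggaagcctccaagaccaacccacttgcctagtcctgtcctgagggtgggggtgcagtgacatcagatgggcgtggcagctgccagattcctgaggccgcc
Both strands were searched for GGGCGG (GC box), TTTNNCGC (an E2F site) and TGANTCA (an AP-1 site). GC boxes began 178, 144 and 35 bases before start 1 of Itga3 and 246 bases before start 2. The Lamb3 window shown held none of the 3 motifs, while the window of its second start site, not printed, held an E2F site 96 bases before that start. Over 8 windows of the matched genes, 4 held a GC box, 2 an E2F site and 0 an AP-1 site. Over all 32851 windows of this length the shares were 32.7%, 4.28% and 6.75%. A match is a description of the letters and not evidence of binding.

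Itgb1, on chromosome 8, encodes the beta subunit that pairs with Itga3 and many other alpha subunits. Its probe set 100123_f_at read 6283 and 6483 in Rb-null serum-free arrays, 7234 and 7640 in Rb-null serum arrays, 5631 and 6564 in wild-type serum-free arrays and 6890, 7169 and 6667 in wild-type serum arrays. The lines overlapped. The averaged difference was -0.02 (95% interval -0.12 to 0.08, adjusted p = 0.708), and 100124_r_at gave -0.07 (interval -0.20 to 0.06, adjusted p = 0.367). The sign of both turned with unnormalized or median-scaled values (0.06 to 0.11), so no direction is given. Without wild-type serum 1, 100124_r_at passed at -0.11 (adjusted p = 0.0358). Both carry a suffix letter (f or r) in their name, as do 7 of the 15 probe sets. Such letters mark probe sets that may match related transcripts or that met fewer design rules.

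Itga6 and Itgb4 encode the subunits of the hemidesmosome integrin. Itga6, on chromosome 2, read 458 and 406 in Rb-null serum-free arrays, 608 and 649 in Rb-null serum arrays, 418 and 411 in wild-type serum-free arrays and 728, 528 and 537 in wild-type serum arrays. Its highest value was that of wild-type serum 1. The averaged difference was 0.03 (interval -0.20 to 0.26, adjusted p = 0.819) and 0.10 without that array (adjusted p = 0.125). Itgb4, on chromosome 11, read 4205 and 4282 in Rb-null serum-free arrays, 3555 and 3187 in Rb-null serum arrays, 3188 and 3300 in wild-type serum-free arrays and 2836, 2947 and 2709 in wild-type serum arrays. Within each medium every Rb-null array was above the wild-type arrays in deposited intensity, but after normalization the serum groups overlapped. The averaged difference was 0.14 (SE 0.05, adjusted p = 0.0437). As deposited it was 0.32 (adjusted p = 0.00116) and with median scaling 0.29 (adjusted p = 0.00237). When single arrays were left out, it kept its call without wild-type serum 1 or 2. Without any of the other 7 arrays (wild-type serum 3, both wild-type serum-free, both Rb-null serum and both Rb-null serum-free arrays) it read 0.12 to 0.17 with adjusted p of 0.0546 to 0.158. A lower floor, no filter, no intensity trend or a replicate block also ended the call (0.14, adjusted p of 0.0505 to 0.0879).

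Itgav and Itgb5 encode the vitronectin receptor subunits. Itgb5, on chromosome 16, read 1399 and 1502 on 100601_at in Rb-null serum-free arrays, 1243 and 1176 in Rb-null serum arrays, 1908 and 1864 in wild-type serum-free arrays and 1324, 1353 and 1304 in wild-type serum arrays. The wild-type serum-free arrays stood above all others. Without serum the difference between the lines was -0.61 (SE 0.08, adjusted p = 0.000913), and it held without any single array. In serum it was -0.26 (SE 0.08, adjusted p = 0.0363). It did not pass without wild-type serum 2 or 3, either wild-type serum-free array or either Rb-null serum array (-0.28 to -0.23, adjusted p of 0.0599 to 0.202). Nor did it pass as deposited (-0.13, adjusted p = 0.241) or with median scaling (-0.16, adjusted p = 0.155). A replicate block or only the arrays of the 2 groups compared also ended the call in serum. The second Itgb5 probe set, 162218_f_at, read 471 to 502 on the Rb-null arrays and 417 to 568 on the wild-type arrays. Its averaged difference was -0.14 (adjusted p = 0.171), or -0.19 without wild-type serum 1 (adjusted p = 0.0105).

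Itgav, on chromosome 2, passed on none of its 3 probe sets with all arrays. Probe set 104386_f_at read 2314 and 2270 in Rb-null serum-free arrays, 2890 and 2813 in Rb-null serum arrays, 1963 and 1936 in wild-type serum-free arrays and 2692, 1988 and 1992 in wild-type serum arrays. Wild-type serum 1 lay close to the Rb-null serum arrays and apart from the other wild-type arrays. With it the averaged difference was 0.11 (adjusted p = 0.232), and without it 0.16 (adjusted p = 0.00491), from 0.31 in serum (adjusted p = 0.00163) and 0.01 without serum. As deposited the value was 0.30 (adjusted p = 0.0254) and with median scaling 0.27 (adjusted p = 0.0418). The weaker probe set 104385_i_at gave 0.34 (adjusted p = 0.0640), passing at 0.40 without wild-type serum 1 (adjusted p = 0.0175) and at 0.46 without Rb-null serum-free 2 (adjusted p = 0.0340). Probe set 98366_at, with 243 to 411 on all arrays, gave 0.08 (adjusted p = 0.515).

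Lamb3, on chromosome 1, encodes the beta chain of laminin-332. Probe set 92759_at read 3015 and 2573 in Rb-null serum-free arrays, 2752 and 2338 in Rb-null serum arrays, 1763 and 1624 in wild-type serum-free arrays and 1655, 1382 and 1392 in wild-type serum arrays. All Rb-null arrays lay above all wild-type arrays. The averaged difference was 0.56 (SE 0.07, adjusted p = 0.000214). In serum it was 0.61 (SE 0.09, adjusted p = 0.00144), and in serum-free medium 0.51 (SE 0.10, adjusted p = 0.00553). The call without serum was narrowly lost when leaving out wild-type serum-free 2 or Rb-null serum-free 1 (0.42 to 0.45, adjusted p of 0.0530 to 0.0551). The second probe set, 161188_f_at, read 1286 to 1486 on the Rb-null arrays and 1102 to 1377 on the wild-type arrays. Its averaged difference after normalization was 0.03 (interval -0.15 to 0.22, adjusted p = 0.773), and as deposited 0.21 (adjusted p = 0.0464).

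Lama3, on chromosome 18, encodes the alpha chain of laminin-332. It read 2051 and 1777 in Rb-null serum-free arrays, 1771 and 1757 in Rb-null serum arrays, 1779 and 1618 in wild-type serum-free arrays and 1454, 1459 and 1543 in wild-type serum arrays. Its averaged difference was 0.02 (interval -0.14 to 0.17, adjusted p = 0.838) after normalization. It was 0.21 as deposited (adjusted p = 0.0269) and 0.18 with median scaling (adjusted p = 0.0459), so its call depended on the scaling. Col17a1, on chromosome 19, was low throughout, at 291 to 326 on the Rb-null arrays and 290 to 363 on the wild-type arrays, with a difference of -0.12 (interval -0.28 to 0.03, adjusted p = 0.175).

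Probe sets of 1 gene gave differences of unequal size in some cases. For each of the 7 within-gene pairs, the log2 ratio of the probe sets was compared between the lines by an exact two-sided permutation test over arrays, with line labels permuted within each medium. The test was added after the values were seen. The genotype difference of Itga3 104211_at was 1.19 further below that of 104210_at (difference -1.19, exact permutation p = 0.0167, the smallest that 60 arrangements allow, and 0.0778 after Benjamini-Hochberg adjustment). The Rb-null arrays did not overlap the wild-type arrays in this ratio. Lamb3 92759_at exceeded 161188_f_at by 0.53 and the Itgb5 pair differed by -0.30, each with an exact permutation p = 0.0333 and an adjusted p = 0.0778. The Itgb1 pair and the 3 Itgav pairs gave adjusted values of 0.350 to 0.767. None passed after adjustment, and with 7 pairs and 60 arrangements no single pair could have passed alone.

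The second comparison asked how each line changed over 48 hours without serum. Itgb4 rose in both lines and Itga6, its partner in the hemidesmosome, fell in the wild-type line. Itgb5 and 1 Lamb3 probe set rose in the wild-type line, where 1 Itgav probe set fell. Itga3 104211_at rose in the Rb-null line. In Rb-null cells 2 of the 15 probe sets rose and 0 fell, while 13.9% of all tested passed, 7.5% rising and 6.42% falling. In wild-type cells 3 rose and 2 fell, while 15.9% of all tested passed, 6.61% rising and 9.25% falling. The median change was -0.09 in Rb-null cells and -0.01 in wild-type cells over the 15 probe sets. Over all tested it was 0.0 in Rb-null cells and 0.05 in wild-type cells. Without wild-type serum 1 the counts in Rb-null cells became 3 up and 2 down, and those in wild-type cells stayed at 3 and 2. The shares of all probe sets that passed without that array were 23.3% in Rb-null cells and 20.1% in wild-type cells, above those with it.

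**Figure D3:**
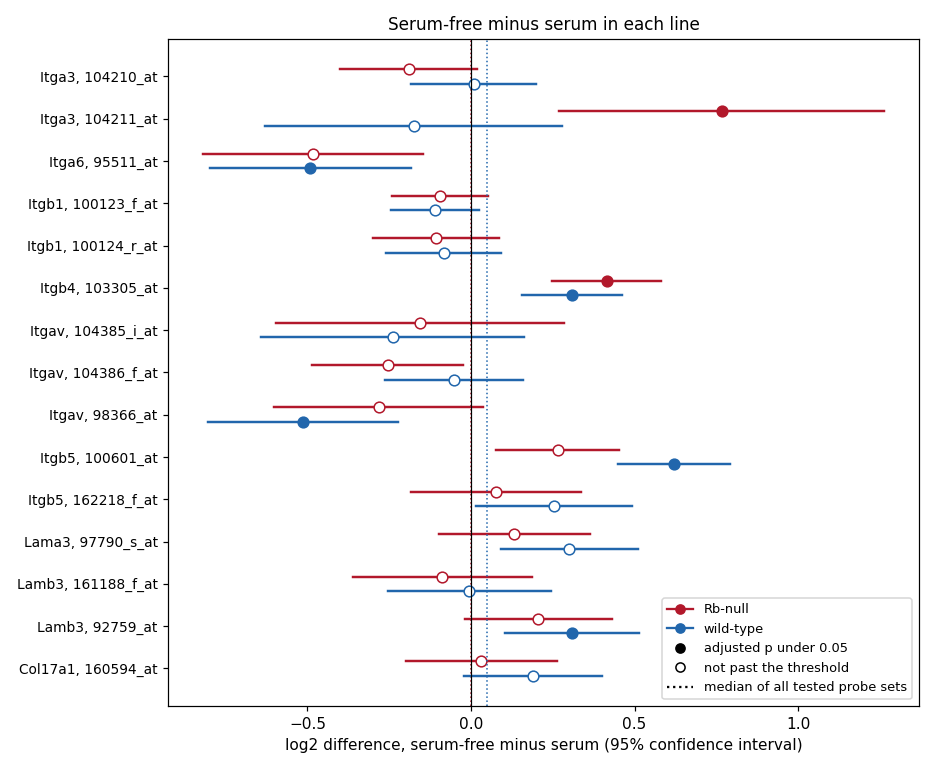
Log2 difference, serum-free minus serum, of each probe set, with Rb-null cells before wild-type cells, with 95% confidence intervals. Filled points passed an adjusted p under 0.05 and dotted lines mark the median of all tested probe sets. Itgb4 lies to the right in both lines (0.41 and 0.31), and Itga3 104211_at lies far to the right in the Rb-null line alone (0.77).

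Itgb4 changed by 0.41 in Rb-null cells (SE 0.07, adjusted p = 0.00575) and by 0.31 in wild-type cells (SE 0.07, adjusted p = 0.0138). The Rb-null call was lost without Rb-null serum 2 (0.36, adjusted p = 0.0743). The wild-type call was lost without either wild-type serum-free array (0.29 to 0.33, adjusted p of 0.0776 to 0.120), as deposited (0.20, adjusted p = 0.108) and with median scaling (0.24, adjusted p = 0.0543). Only the arrays of the 2 groups compared also ended the wild-type call of Itgb4. Itga6 changed by -0.48 in Rb-null cells (SE 0.15, adjusted p = 0.0651) and by -0.49 in wild-type cells (SE 0.14, adjusted p = 0.0394). Without wild-type serum 1, the array with the highest Itga6 value, both passed, at -0.48 (adjusted p = 0.00223) and -0.34 (adjusted p = 0.0140). With wild-type serum 1 kept, the wild-type call was lost without either wild-type serum-free array or any of the 4 Rb-null arrays (adjusted p of 0.0704 to 0.202, all near -0.49), and with median scaling (-0.47, adjusted p = 0.0612). No filter on low values or only the arrays of the 2 groups compared also ended the wild-type call of Itga6. In every group without serum, Itga6 intensity lay below every serum array of the same line.

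Itgb5 100601_at changed by 0.26 in Rb-null cells (SE 0.08, adjusted p = 0.0689) and by 0.62 in wild-type cells (SE 0.08, adjusted p = 0.000600). The wild-type call held in every alternative run, and without wild-type serum 1 the Rb-null change also passed (0.26, adjusted p = 0.0153). Itgav 104386_f_at changed by -0.26 in Rb-null cells (adjusted p = 0.157), a value that passed without wild-type serum 1 (adjusted p = 0.00667), and by -0.05 in wild-type cells (adjusted p = 0.743). Itgav 98366_at read 259 and 315 in Rb-null serum-free arrays, 411 and 319 in Rb-null serum arrays, 269 and 243 in wild-type serum-free arrays and 396, 340 and 363 in wild-type serum arrays. It changed by -0.28 in Rb-null cells (adjusted p = 0.277) and by -0.51 in wild-type cells (adjusted p = 0.0256). The wild-type call was lost without either wild-type serum-free array (adjusted p of 0.117 to 0.199) with no filter on low values (adjusted p = 0.0956) and with the floor at percentile 40 (-0.13, adjusted p = 0.387). Lamb3 92759_at changed by 0.21 in Rb-null cells (adjusted p = 0.250) and by 0.31 in wild-type cells (adjusted p = 0.0478). Among fits that left out 1 array, the wild-type call held without wild-type serum 1 (0.35, adjusted p = 0.0196). Without any of the other 8 arrays it was lost, at 0.25 to 0.37 with adjusted p of 0.0567 to 0.293. It was also lost as deposited (0.20, adjusted p = 0.341) and with median scaling (0.25, adjusted p = 0.216). A floor at percentile 10, no filter on low values, no intensity trend or only the arrays of the 2 groups compared also ended it. It was kept with the floor at percentile 40 (adjusted p = 0.0439) and with the replicate block (adjusted p = 0.0391), and in 3 of 17 alternatives in all.

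Itga3 104211_at changed by 0.77 in Rb-null cells (SE 0.22, adjusted p = 0.0486) and by -0.17 in wild-type cells (adjusted p = 0.606). The Rb-null serum-free arrays, at 1445 and 2491, set the size of this change. Without the array at 2491 the change was 0.35 (adjusted p = 0.182), and without the other serum-free array 1.19 (adjusted p = 0.00310). The call was also lost without wild-type serum 2 or 3, either wild-type serum-free array or either Rb-null serum array (adjusted p of 0.0576 to 0.244), with no filter on low values (adjusted p = 0.183) and with no intensity trend (adjusted p = 0.0603). Only the arrays of the 2 groups compared also ended this call. The other Itga3 probe set changed by -0.19 in Rb-null cells (adjusted p = 0.259) and by 0.01 in wild-type cells (adjusted p = 0.962), so the probe sets differed in sign. Itgb1, Lama3 and Col17a1 did not pass in either line. Lama3 read 0.13 in Rb-null cells (adjusted p = 0.534) and 0.30 in wild-type cells (adjusted p = 0.0595).

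The last comparison asked whether the withdrawal response differed between the lines. With limma, 0 of the 15 probe sets passed, against 0.929% of all tested, and 2 had an unadjusted p under 0.05. Those were Itga3 104211_at, with a difference between responses of 0.94 (SE 0.30, adjusted p = 0.245), and Itgb5 100601_at, with -0.36 (SE 0.11, adjusted p = 0.245). Without Rb-null serum-free 1 the Itga3 value was 1.36 and passed (adjusted p = 0.0243), and without Rb-null serum-free 2 it was 0.52 (adjusted p = 0.339). The Itga3 difference between responses thus moved with those 2 arrays, which disagreed with each other.

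The probe sets most like Itga3 104211_at across the 9 arrays, by Pearson's r of log2 values, were those of Atp6v0a1 (0.996), Plxnb2 (0.995) and Mid1ip1 (0.989). The probe sets most like Lamb3 92759_at were those of Glce (0.983), Tbc1d23 (0.981) and Dsp (0.980). These values describe 9 arrays in 4 groups that share a line or a medium, and are given without a test.

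The other genes of matrix adhesion were read from 7 lists of 126 genes in all, each gene by its brightest probe set. Over all tested genes 22.6% were higher and 23.9% lower in Rb-null cells on average over the media, with a median of -0.05. In either direction 46.6% passed. As deposited 30.1% were higher and 843 of 7052 lower. On withdrawal 14.3% of all tested genes passed in Rb-null cells and 16.5% in wild-type cells. Genes given below as past the threshold in the averaged difference kept their direction under every alternative run.

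**Figure D4:**
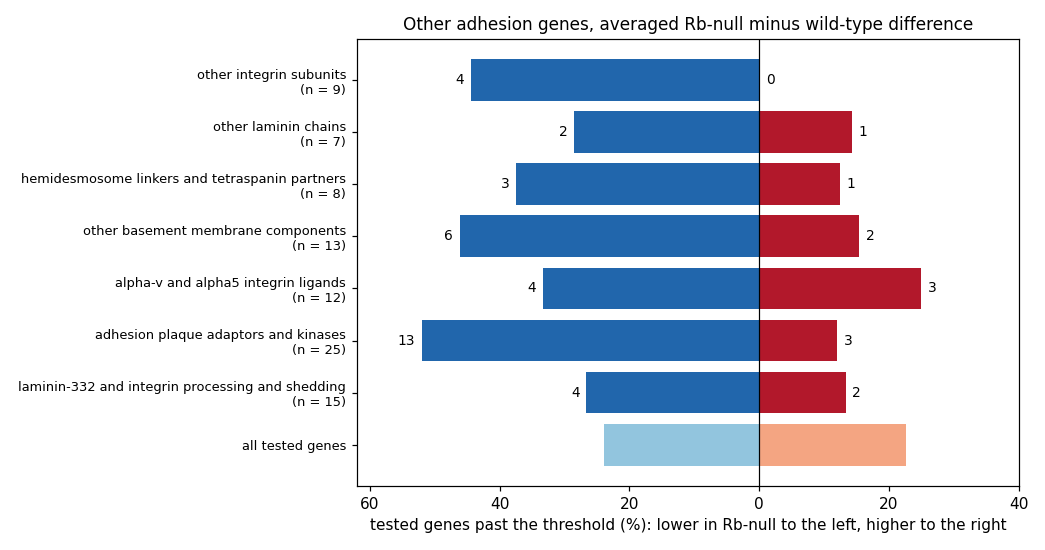
Share of tested genes of each adhesion list that passed an adjusted p under 0.05 in the averaged Rb-null minus wild-type difference, lower to the left and higher to the right, in percent, with the number of genes beside each bar. The pale bars give all tested genes. The adaptor and kinase list has 13 of 25 genes on the lower side.

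Of 9 other integrin subunits tested, 0 were higher and 4 lower in Rb-null cells (median -0.16), and 7 were lower without wild-type serum 1, a setting in which 36.0% of all tested genes were lower. Within single media, Itga8 and Itgb3 passed in serum, and Itga7 and Itgb7 passed without serum. Itgb7 read -0.30 there (adjusted p = 0.0360) and did not pass in the averaged difference. Itga8 stood at -0.35 (adjusted p = 0.00394), Itgb3, the platelet and osteoclast beta subunit, at -0.29 (adjusted p = 0.0100) and the muscle laminin receptor subunit Itga7 at -0.23 (adjusted p = 0.0173). The Itga7 call was kept in 12 of 16 alternatives, and its other tested probe sets read -0.13 and -0.09. The probe sets given for Itga8, Itgb3 and Itga7 were dim, between 353 and 641 on all arrays. None of the 9 passed in either withdrawal comparison.

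Of 7 other laminin chains, 1 was higher and 2 lower (median -0.21). Lamc1, the gamma chain of most laminins, stood at 0.35 (adjusted p = 0.00287), Lama5, an alpha chain of adult epithelial basement membranes, at -0.68 (adjusted p = 0.000514) and Lama2 at -0.21 (adjusted p = 0.0458, a call kept in 4 of 16 alternatives). A second Lama5 probe set read 0.05. Lamb2 rose on serum withdrawal in Rb-null cells (0.45, adjusted p = 0.0282) and in wild-type cells (0.43, adjusted p = 0.0223). These calls were kept in 10 and 11 of 17 alternatives.

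Of 8 hemidesmosome linkers and tetraspanin partners, 1 was higher and 3 lower (median -0.11). Cd81 was lower at -0.87 (adjusted p = 1.92e-06), with 2075 to 2825 on the Rb-null arrays and 3837 to 4373 on the wild-type arrays. Cd151, the tetraspanin that binds the laminin-receptor integrins, was lower at -0.35 (adjusted p = 0.000206), and Plec, which links integrin beta-4 to keratin filaments, at -0.30 (adjusted p = 0.00300). The lysosomal tetraspanin Cd63 was higher at 0.54 (adjusted p = 8.22e-05). The basal keratins Krt5 (-0.14, adjusted p = 0.222) and Krt14 (-0.01, adjusted p = 0.905) did not pass with all arrays. Without wild-type serum 1, Krt5 passed at -0.19 (adjusted p = 0.0445).

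Of 13 other basement membrane genes, 2 were higher and 6 lower (median -0.15). Hspg2, the heparan sulfate proteoglycan perlecan, stood at -0.62 (adjusted p = 0.000252), Col18a1 at -0.52 (adjusted p = 0.000134) and Fbln2 at -0.37 (adjusted p = 0.00129). Other tested probe sets of Col18a1 read -0.03, -0.32, -0.56 and -1.10. The collagen IV chain Col4a1 stood at 0.59 (adjusted p = 0.000330) and Sparc, a collagen-binding matrix protein, at 1.04 (adjusted p = 0.000538). The Sparc difference was 1.95 in serum (adjusted p = 0.000160) and 0.14 without serum (adjusted p = 0.642), and its withdrawal response differed between the lines (-1.81, adjusted p = 0.0254). Sparc read 175 to 183 on the wild-type serum arrays, under the floor. The serum value, the averaged value and the difference between responses were thus fitted with those arrays at the floor. On withdrawal Col4a1 fell in Rb-null cells (-0.63, adjusted p = 0.00569) and in wild-type cells (-0.93, adjusted p = 0.000330). Col18a1 rose in Rb-null cells (0.37, adjusted p = 0.0188, kept in 11 of 17 alternatives and lost as deposited and with median scaling) and in wild-type cells (0.73, adjusted p = 0.000260). Sparc fell by 1.18 in Rb-null cells (adjusted p = 0.00629).

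Of 12 ligands of alpha-v and alpha-5 integrins, 3 were higher and 4 lower (median -0.02, and 0.04 as deposited). Tnc, the matrix glycoprotein tenascin C, was higher in Rb-null cells (adjusted p = 3.36e-08), by an amount that depended on the medium. It read 293 to 310 in Rb-null cells without serum and 1374 to 1394 in Rb-null cells with serum, a change of -2.08 (adjusted p = 6.31e-07), and 144 to 179 in wild-type cells, under the floor on every array. With wild-type values at the floor, the fitted difference was 2.72 in serum (adjusted p = 2.33e-08) and 0.64 without serum (adjusted p = 0.000299). Fibronectin (Fn1) was higher at 0.26 (adjusted p = 0.00330), from 0.34 in serum (adjusted p = 0.00705) and 0.18 without serum (adjusted p = 0.0982), and Tgfb1, whose latent form binds alpha-v integrins, was lower at -0.61 (adjusted p = 0.000653). Ccn1 was lower at -0.54 (adjusted p = 0.00158), with -0.07 in serum (adjusted p = 0.721) and -0.998 without serum (adjusted p = 0.000925). On withdrawal Ccn1 fell in Rb-null cells (-1.42, adjusted p = 0.000180) and in wild-type cells (-0.50, adjusted p = 0.0248). Its relative Ccn2 also fell in Rb-null cells (-1.05, adjusted p = 1.42e-05) and in wild-type cells (-0.76, adjusted p = 5.10e-05).

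Of 25 adaptors and kinases of the adhesion plaque, 3 were higher and 13 lower (median -0.19). As deposited 6 were higher and 8 lower, and with median scaling 5 and 8. The counts over all tested genes moved the same way. After normalization 1598 of 7063 were higher and 1691 lower. As deposited 2124 of 7052 were higher and 843 lower, and with median scaling 1957 and 1131. Whether the imbalance of this list changed relative to all tested genes was not tested. Vasp, an actin-filament elongation factor, stood at -0.67 (adjusted p = 0.000271), Csrp1 at -0.61 (adjusted p = 0.000535) and the integrin-linked kinase gene Ilk at -0.43 (adjusted p = 0.000491). Lims1, whose product PINCH forms a complex with that kinase, went the other way at 1.07 (adjusted p = 0.000151), as did the adaptors Crk at 0.62 (adjusted p = 3.26e-05) and Crkl at 0.43 (adjusted p = 0.00230). A second Crkl probe set read -0.41. On withdrawal the actin crosslinker Actn1 fell in Rb-null cells (-0.28, adjusted p = 0.0412, kept in 8 of 17 alternatives) and in wild-type cells (-0.53, adjusted p = 0.00109).

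Of 15 genes that process or shed laminins and integrins, 2 were higher and 4 lower (median -0.12). Without wild-type serum 1 the counts were 2 and 8, while the shares of all tested genes were 27.7% higher and 36.0% lower. The membrane protease Mmp14 was lower at -1.28 (adjusted p = 3.04e-07), its partner inhibitor Timp2 at -1.09 (adjusted p = 0.00106) and Bmp1, a protease that trims laminin-332 chains, at -0.36 (adjusted p = 0.000476). The sheddase Adam10 was higher at 1.30 (adjusted p = 0.000102), while a second Adam10 probe set read 0.21. Timp3 was also higher (adjusted p = 1.55e-07), with 439 to 673 on the Rb-null arrays and 76 to 103 on the wild-type arrays, where it was under the floor throughout. On withdrawal Adam9 fell by 0.96 in wild-type cells (adjusted p = 0.00201).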

How the data were processed

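Each of the 9 arrays has 1 deposited linear intensity per probe set. The authors' summary software and scaling were not stated in the sources used here. Upper quartiles differed by 0.219 on the log2 scale, so arrays were quantile normalized, floored at percentile 25 of all values (197) and taken to log2. The 9686 probe sets above the floor on at least 2 arrays entered 1 limma fit (version 3.58.1, R 4.3.3) of 4 group means, an intensity trend, 5 residual degrees of freedom, two-sided tests and Benjamini-Hochberg adjustment over all tested. Gene symbols came from the platform annotation, updated by gene identifier (RefSeq GRCm38.p6). Values quoted per array are deposited intensities, and differences are log2 of normalized values. The procedure was tested on simulated data. List genes were named by smallest adjusted p, up to 3 a direction for the averaged difference and up to 2 for withdrawal, though not all are described. Itgb7, Krt5 and Krt14 were named outside that rule. The members and lists were chosen with earlier results of these data known. Alternatives changed the scaling, floor, filter, variance trend, arrays in the fit and replicate block.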

Additional observations from a re-analysis of the deposited data

How the results depend on the processing

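Of 20 member values past the threshold, 11 kept their call under every alternative, 9 lost it under at least 1, and 0 changed sign. The 15 averaged genotype values included 10 that did not pass, and 6 of those changed sign somewhere. The number of member probe sets past the threshold was 5 in the averaged genotype difference (8 as deposited, 4 to 9 when single arrays were left out), and 2 for withdrawal in Rb-null cells (1 with no intensity trend, 0 to 5 leaving out single arrays). For withdrawal in wild-type cells it was 5 (3 as deposited, 2 with median scaling, 2 with no filter, 2 with only the arrays compared, 1 to 5 leaving out single arrays). For the interaction it was 0 (0 to 1). Leaving out single arrays gave 3 to 5 for the genotype difference in serum and 3 to 6 without serum. The highest counts of the averaged genotype difference and of withdrawal in Rb-null cells came without wild-type serum 1. The shares of all tested genes that passed also changed with the setting. In the averaged difference 30.1% were higher and 843 of 7052 lower as deposited, against 22.6% and 23.9% after normalization. On withdrawal in wild-type cells 4.06% rose and 10.7% fell as deposited, and 5.15% rose and 8.31% fell with median scaling. After normalization 16.5% passed there in either direction. Whether the member counts moved relative to these shares was not tested. The averaged value of Itgb1 turned to 0.088 as deposited and 0.057 with median scaling on 100123_f_at (-0.063 to 0.02 leaving out arrays), and to 0.107 and 0.076 on 100124_r_at. Leaving out arrays, Itga6 ranged from -0.012 to 0.105, Itgav 98366_at from -0.014 to 0.173, Lama3 from -0.026 to 0.063 and Lamb3 161188_f_at from -0.016 to 0.078. The cause of these shifts was not tested. With the replicate number as a block, the counts were 4 for the averaged difference, 3 in serum and 4 without serum. They were 2 and 6 for withdrawal in Rb-null and wild-type cells and 0 for the interaction, and Itga6 read -0.001. Of all tested genes, 20.5% were then higher and 18.6% lower in the averaged difference. On withdrawal 6.68% rose and 6.33% fell in Rb-null cells, and 6.29% rose and 10.1% fell in wild-type cells. Deviations of same-numbered arrays correlated at -0.231 to 0.331, so the numbers were not taken to pair arrays. With 2 or 3 arrays a group, small genotype differences near the floor, as for Col17a1 and Itgav 98366_at, were not resolved.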
